A study of Bos taurus with 8 samples.

Results

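Limousin (LIM) and Hereford (HER), the beef breeds of the series, were compared with each other through Holstein-Friesian (HF), the dairy breed that was hybridised beside both. The comparison used 8 of 8 arrays: 4 two-colour arrays with LIM labelled with Cy5 and HF with Cy3, and 4 with HER labelled with Cy3 and HF with Cy5. Each channel held total RNA from a primary culture of muscle cells of the semitendinosus muscle, a hind limb muscle, of a bull slaughtered at 15 months of age. The cultures were grown in serum-containing proliferation medium without any treatment to 80% confluence, so all groups were proliferating cells that had not been moved to differentiation medium. The methods describe 4 bulls of each breed, and the labels number the arrays of a breed from 1 to 4 as biological replicates. Which HF bull was hybridised on which array was not stated in the sources used here. All LIM arrays were on one slide and all HER arrays on another, with opposite dyes, and the design therefore cannot tell the breed from its slide or its dyes.

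Satellite cells are the stem cells of skeletal muscle, and after isolation they proliferate as myoblasts before they leave the cell cycle and fuse into myotubes. Such cultures also carry fibroblasts, adipogenic precursors and vascular cells of the muscle in a share that depends on the animal and the isolation. LIM is known as a lean, heavily muscled breed, and HER as a breed that fattens earlier and carries a white face on a red coat.

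For each probe, the log2 HER/HF ratios were subtracted from the log2 LIM/HF ratios, and the result is called the ratio difference, positive where LIM was higher relative to HF than HER was. It is the sum of 2 sides. The beef side is the LIM channels minus the HER channels, and the HF side is the HF channels beside HER minus the HF channels beside LIM, which hold no beef RNA. A dye effect of a probe enters the ratio difference 2 times and cancels in the channel sum (log2 red plus log2 green, LIM arrays minus HER arrays), which equals the beef side minus the HF side. A gene that passed in the ratio difference and in the channel sum with the same sign, with an HF side near 0, therefore differed in both readouts. A slide effect does not cancel in the channel sum. The channel sums were quantile normalized between arrays before the split, so the size of each side depends on that step.

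The array held 21475 probes, and the 17631 that the scanner marked well above background in 4 or more of 16 channels were tested. Gene symbols were found for 7213 of these probes, or 6815 genes, and genes are described by their brightest probe. The share of spots well above background was 68.8% to 85.2% in the beef channels and 73.9% to 78% in the HF channels, and no spot was saturated. The log2 ratios had an SD of 0.91 to 0.98 on the LIM arrays and 0.65 to 0.92 on the HER arrays. The median log2 channel sum was 18.3 to 18.8 on the LIM slide and 17.0 to 18.1 on the HER slide. A probe was called where the limma p did not exceed 0.05 and the fold reached 1.3, the limits that the methods name. The adjusted threshold applied the same limits to the Benjamini-Hochberg adjusted p.

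In the ratio difference, 2482 probes (14.1%) passed the unadjusted threshold, 1395 (7.91%) higher in LIM and 1087 (6.17%) lower in LIM. The balance of directions depended on background correction, on centring and on dim probes. The spot intensities were renormalized in 3 ways, each followed by loess within the array: with the background model normexp on the local backgrounds as measured, with normexp after backgrounds marked as outliers were replaced, and without background correction. All 3 added an offset of 50 to each channel, which pulls ratios of dim probes toward 0. A call of a dim probe lost there cannot be told apart from the effect of this offset. The numbers higher and lower in LIM were 782 and 740 in the first, 720 and 877 in the second, 611 and 768 in the third, and 817 and 1022 among probes above background in all channels. With each array centred on its median ratio, they were 1177 and 1356. The adjusted threshold was passed by 41 probes (0.233%), 31 higher in LIM (0.176%) and 10 lower (0.0567%). Without any 1 of the 8 arrays, 1 to 14 probes passed it, the lowest count without LIM2 or HER4. In the channel sum, 2124 probes (12%) passed the unadjusted threshold, 899 (5.1%) higher and 1225 (6.95%) lower on the LIM arrays, and 3 (0.017%) passed the adjusted one. The HF side, which compares HF with HF across slides and dyes, had 1154 unadjusted calls (6.55%) and 38 adjusted calls (0.216%). With the replicate number as a block, 1582 probes (8.97%) passed the unadjusted and 953 (5.41%) the adjusted threshold on the HF side.

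The ratio difference and the HF side passed with the same sign for 471 probes (2.67%), and the ratio difference and the channel sum for 407 (2.31%). Among the 6815 named genes, 794 (11.7%) passed the unadjusted threshold, 407 (5.97%) higher in LIM and 387 (5.68%) lower, and the 4 LIM and 4 HER ratios did not overlap for 607 genes (8.91%). Both readouts passed for 60 genes higher in LIM and 50 lower. In the channel sum, 293 of the 6815 named genes were called higher and 382 lower. The ratio difference was above 0 for 3389 of them. The median ratio difference of all named genes was −0.00. For a single gene, the smallest two-sided p of an exact permutation test of 4 against 4 arrays is 0.0286, so p-values below come from the fit across all probes.

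**Figure D1:**
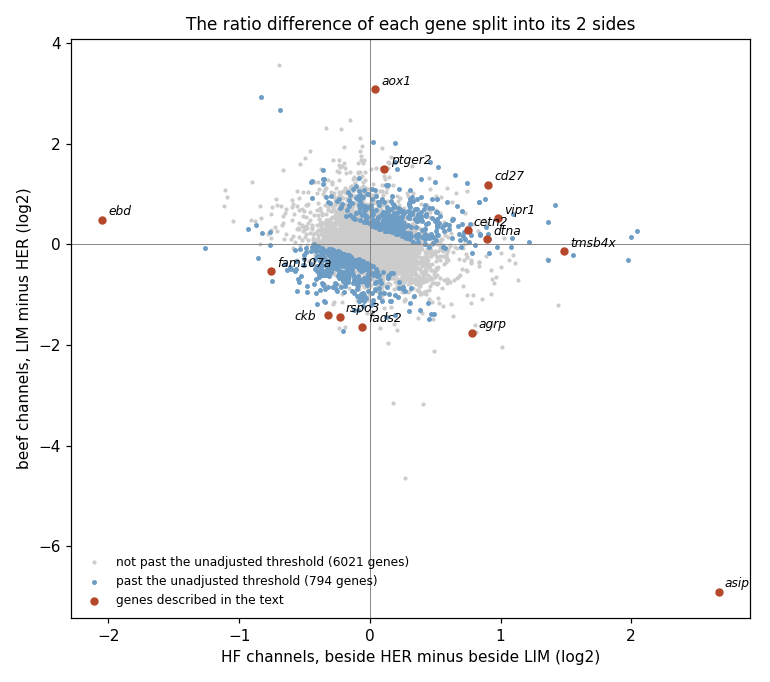
Each point is 1 of the 6815 named genes, with the HF side (HF channels beside HER minus beside LIM, log2) on the x axis and the beef side (LIM channels minus HER channels, log2) on the y axis. Their sum is the ratio difference, and the channel sums were quantile normalized between arrays before the split. The gene *asip* lies far below all others on the beef side at −6.90 with an HF side of 2.67, *aox1*, *fads2* and *ptger2* lie near 0 on the HF side, and *tmsb4x*, *ebd* and *dtna* have nearly all of their ratio difference, or more, on the HF side.

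Among named genes past the adjusted threshold, the widest ratio difference was that of *asip*, named here after its values were seen, as were *agrp*, *cd27*, *ptger2* and *vipr1*. It encodes agouti signalling protein, an antagonist of melanocortin receptors that acts in coat pigmentation and is also expressed in bovine adipose tissue and muscle. The log2 LIM/HF ratios were 0.00, −0.30, 0.00 and 0.74, and the log2 HER/HF ratios were 3.87, 4.20, 4.71 and 4.56. All HER ratios thus lay more than 3 log2 units above the highest LIM ratio. The ratio difference was −4.23 (SE 0.27, adjusted p = 0.00326), and *asip* was also 1 of the 3 probes past the adjusted threshold in the channel sum, at −9.57 (adjusted p = 0.00013). In processed signal, the HER channels read 478 to 754 and the LIM channels 3.91 to 10.1, with the probe well above background on 4 of 4 HER and 1 of 4 LIM arrays. On means normalized between arrays, with a background bound on the LIM side, the HER channels were 99.6-fold higher than the LIM channels. The HF channels differed too, with 25.3 to 48.9 beside HER and 6.09 to 14.6 beside LIM. On normalized means with such a bound, they were 4.34-fold higher beside HER. The *asip* probe was not well above background in any HF channel beside LIM. It therefore passed the filter through the HER arrays, and its LIM/HF ratios compare signals at or near background. When each array was left out in turn, *asip* passed the adjusted threshold every time (adjusted p of 0.0027 to 0.0342), whereas with normexp on the backgrounds as measured it did not pass the unadjusted threshold (−1.31).

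The related gene *agrp* encodes agouti-related peptide, another melanocortin antagonist, best known from hypothalamic control of feeding. Its log2 ratios were −0.20, −0.30, −0.11 and 0.05 for LIM/HF and 0.38, 0.66, 1.24 and 1.03 for HER/HF. The HER ratios did not overlap with the LIM ratios, and the probe was well above background in all channels. It differed by −0.97 (SE 0.21, adjusted p = 0.117), with a channel sum of −2.54 and an HF side of 0.78. The call was lost with normexp on the backgrounds as measured (−0.20) and without background correction (−0.36). Both genes were lower in LIM in both readouts, with an HF side of the opposite sign to the ratio difference.

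Of the 41 probes past the adjusted threshold, 8 had a gene symbol, and 6 of those genes passed with their brightest probe. The other 2, *phyhip* and *mprip*, passed on a dimmer probe, and their brightest probes differed by 0.38 and −0.04. In 30 of the 41 the HF side was called with the same sign, in 6 the channel sum was called with the same sign, and in 12 it was called with the opposite sign. In 27 of the 41, and in 25 of the 31 higher in LIM, at least 1 of the 4 channel sets was above background on no array. The share of such probes among all tested probes is not given here. The centrin gene *cetn2*, which acts in centrosomes and DNA repair, was well above background in all channels. Its log2 LIM/HF ratios were 0.38, 0.26, 0.16 and 0.10 and its log2 HER/HF ratios −0.88, −0.75, −0.71 and −0.88, a ratio difference of 1.03 (SE 0.14, adjusted p = 0.0386). The beef side accounted for 0.28 and the HF side for 0.75, and the channel sum had the opposite sign (−0.47). The actin-associated stress response gene *fam107a* had log2 ratios of −1.61, −1.70, −1.80 and −1.92 for LIM/HF and −0.86, −0.53, −0.25 and −0.22 for HER/HF. Its ratio difference was −1.29 (SE 0.18, adjusted p = 0.0414), with −0.53 on the beef side and −0.76 on the HF side. The replicates of both genes were tight, but after quantile normalization between arrays the larger share of each difference lay between HF channels. In median processed signals, not normalized between slides, *cetn2* read 11875 in LIM, 6878 in HER, 11998 in HF beside HER and 10078.5 in HF beside LIM. There its wider gap lay between the beef channels. For *fam107a* these medians were 105 in LIM, 108 in HER, 149 in HF beside HER and 353 in HF beside LIM, with the wider gap between HF channels.

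Among the dimmer probes, the receptor genes *ptger2*, *cd27* and *vipr1* were higher in LIM. The prostaglandin E2 receptor gene *ptger2* had log2 ratios of 0.81, 0.68, −0.13 and 0.37 for LIM/HF and −1.35, −1.16, −1.19 and −1.04 for HER/HF. The ratio difference was 1.62 (SE 0.22, adjusted p = 0.0386), nearly all of it on the beef side (1.51). After normalization between arrays, the LIM channels read 2.84-fold higher than the HER channels, in which the probe was above background on no array. For *cd27*, a tumour necrosis factor receptor family member known from lymphocytes, the ratio difference was 2.09 (SE 0.24, adjusted p = 0.0365), with 1.19 on the beef side and 0.90 on the HF side. For *vipr1*, a receptor of vasoactive intestinal peptide, it was 1.49 (SE 0.20, adjusted p = 0.0386), with 0.52 on the beef side, 0.98 on the HF side and a channel sum of the opposite sign (−0.46). That probe was well above background on 4 LIM channels, 0 HER channels, 0 HF channels beside LIM and 1 beside HER, so it passed the filter through LIM. After normalization between arrays, the LIM channels of *vipr1* read 1.43-fold higher than its HER channels. Its median processed signals before that were 26.1 in LIM, 10.2 in HER, 15.3 in HF beside HER and 15.2 in HF beside LIM. All 3 calls were lost with normexp on the backgrounds as measured, at 0.23 for *ptger2*, 0.24 for *cd27* and 0.13 for *vipr1*.

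After their values were seen, 3 probes without a gene symbol were singled out, all well above background on 3 or more of 4 arrays in each channel set. In these the adjusted call came with the same call in the channel sum and no call on the HF side. For A_73_116780, the log2 LIM/HF ratios were −1.08, 0.52, −0.10 and 1.28, and the log2 HER/HF ratios were −3.72, −3.91, −4.73 and −2.93. The probe was well above background in all channels, and all HER ratios were far below the lowest LIM ratio. The ratio difference was 3.98 (SE 0.54, adjusted p = 0.0386), the channel sum was 3.98 and the HF side was −0.00. For A_73_118946, the log2 LIM/HF ratios were −0.10, −0.42, −0.33 and −0.87 and the log2 HER/HF ratios 0.95, 1.12, 0.87 and 0.75. This probe differed by −1.35 (SE 0.19, adjusted p = 0.0437), with a channel sum of −1.28 and an HF side of −0.03. A_73_106475 was lower in LIM by −1.94 (SE 0.23, adjusted p = 0.0365) and was dimmer, and its call was lost in all 3 renormalizations of the spot intensities (−0.29 to −0.21). The first of these probes showed the largest ratio difference among the adjusted calls that were well above background in every channel set.

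Besides *cetn2*, the bright named genes with the largest differences toward LIM, among those whose LIM and HER ratios did not overlap, passed only the unadjusted threshold. For *slco2a1*, a prostaglandin transporter gene, the log2 LIM/HF ratios were 1.95, 1.92, 1.83 and 1.19, and the log2 HER/HF ratios were 0.83, 0.47, −2.42 and −0.11. The 4 LIM ratios lay above the 4 HER ratios, and HER3 lay far below the other HER arrays. The resulting ratio difference was 2.03 (SE 0.65, adjusted p = 0.207), and without HER3 it was 1.33. The spermidine and spermine acetyltransferase gene *sat1* had log2 ratios of 1.25, 2.22, 1.72 and 2.04 for LIM/HF and 1.06, 0.26, 0.20 and 0.84 for HER/HF, a ratio difference of 1.22 (SE 0.28, adjusted p = 0.132). The E3 ubiquitin ligase gene *cbll1* differed by 1.39 (SE 0.22, adjusted p = 0.0625), mostly on the beef side (1.08). The sphingosine 1-phosphate receptor gene *s1pr3* had log2 ratios of 0.09, 0.37, 0.45 and 0.50 for LIM/HF and −0.69, −0.40, −1.02 and −0.50 for HER/HF. Its ratio difference was 1.01 (SE 0.18, adjusted p = 0.0772), with a channel sum of 0.91 and an HF side of 0.05, but the mean over all its probes was 0.26 and was not called. The phosphatase gene *pdp2*, which activates pyruvate dehydrogenase, differed by 1.04 (adjusted p = 0.0772), with 0.68 on the HF side, and was lost in all 3 renormalizations (0.25 to 0.35). The call of *gstcd* (1.05, adjusted p = 0.165) was lost with normexp on the backgrounds as measured (0.27) and without background correction (0.37). The call of *mbd5* (1.05, adjusted p = 0.254) was lost without LIM1 (0.75), HER2 (0.77) or HER4 (1.02).

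For other genes of this set, the values normalized between arrays placed most of the ratio difference, or more, on the HF side. The actin-sequestering thymosin gene *tmsb4x* had a ratio difference of 1.35 (adjusted p = 0.082), made of −0.14 on the beef side and 1.48 on the HF side. The dystrobrevin gene *dtna*, a part of the dystrophin complex, had a ratio difference of 1.00 (adjusted p = 0.0829), made of 0.10 and 0.90, and it was not called as the mean of its probes (0.47). Before normalization between arrays, the median processed signals of *dtna* were 1087 in LIM, 730 in HER, 1139 in HF beside HER and 898 in HF beside LIM. There the wider gap lay between the beef channels. In the other direction, the beta-defensin gene *ebd* had a ratio difference of −1.56 (adjusted p = 0.101), made of 0.49 on the beef side and −2.05 on the HF side. For these 3 genes the channel sum was called with the sign opposite to that of the ratio difference.

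Among bright called genes lower in LIM whose ratios did not overlap, *ckb*, the brain-type cytosolic creatine kinase, which precedes the muscle isoform during myogenesis, showed the largest ratio difference. Its log2 LIM/HF ratios were −2.04, −0.86, −1.17 and −1.62, and its log2 HER/HF ratios were −0.10, 0.44, 0.26 and 0.60. The groups did not overlap, and the ratio difference was −1.72 (SE 0.28, adjusted p = 0.0625), with −1.40 on the beef side and −0.32 on the HF side. The vesicular monoamine transporter gene *slc18a2* differed by −1.50 (adjusted p = 0.104) and the histone gene *h2bc15* by −1.46 (adjusted p = 0.0772), with −1.15 and −1.11 on the beef side. The checkpoint gene *atrip*, whose product recruits the ATR kinase to damaged DNA, differed by −1.42 (adjusted p = 0.136). The inositol monophosphatase gene *impa2* differed by −1.42 as well (adjusted p = 0.184), with −1.30 on the beef side. These 5 genes passed the unadjusted threshold in every renormalization and without each array in turn.

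Several genes that passed in both readouts had an HF side close to 0. The aldehyde oxidase gene *aox1* had log2 LIM/HF ratios of 2.94, 3.34, 1.37 and −1.32 and log2 HER/HF ratios of −0.88, −2.22, −1.39 and −1.68. LIM1, LIM2 and LIM3 lay above all HER arrays, whereas LIM4 lay within their range. The ratio difference was 3.13 (SE 0.93, adjusted p = 0.188), the channel sum 3.04 and the HF side 0.04, and without LIM4 the ratio difference was 4.09 (adjusted p = 0.0639). The rhomboid family gene *rhbdd1* had log2 ratios of 0.21, −0.55, −0.53 and −0.80 for LIM/HF and 1.40, 1.32, 0.94 and 0.28 for HER/HF. It differed by −1.40 (SE 0.31, adjusted p = 0.118), with a channel sum of −1.22 and an HF side of −0.09, without overlap and in every setting tried.

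Other genes called in both readouts rested on fewer arrays. The chromatin organiser gene *satb1* (1.13, adjusted p = 0.255) was lost without HER2 or HER4 (0.73 to 1.39), and the replication fork gene *tipin* (0.98, adjusted p = 0.27) without LIM4, HER2 or HER3 (0.67 to 1.13). The gene *loc281376* (1.05, adjusted p = 0.326) was lost without any of LIM1, LIM2, LIM3, LIM4, HER1 or HER3 (0.71 to 1.36). Toward HER, the homeobox gene *pitx3* (−1.32, adjusted p = 0.262) was lost without LIM3, HER3 or HER4 (−1.65 to −0.88). The hexosamine pathway gene *gfpt2* (−1.19, adjusted p = 0.27) was lost without LIM2, LIM3, LIM4, HER2 or HER3, for example at −1.08 without LIM2 and −1.05 without HER2.

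**Figure D2:**
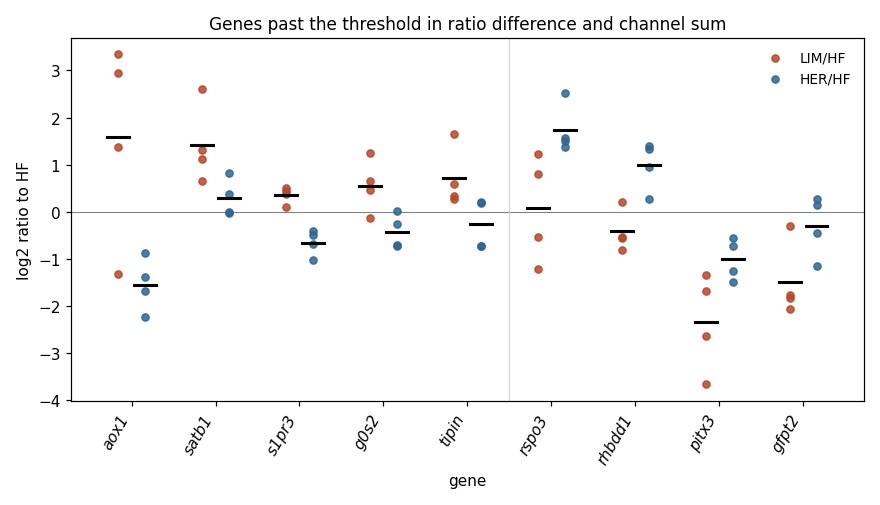
Log2 ratio to HF (y axis) of 9 genes that passed the unadjusted threshold in the ratio difference and in the channel sum, 5 higher in LIM on the left and 4 lower on the right; points are the 4 arrays of each breed and black lines their means. LIM4 of *aox1* at −1.32 lies among the HER arrays, while *s1pr3*, *rspo3* and *rhbdd1* do not overlap between breeds.

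The called genes of lipid synthesis were all lower in LIM. Of 39 genes on the list of cholesterol and fatty acid synthesis, 25 were tested, 5 were called lower in LIM and 0 higher, and the median ratio difference was −0.37, with 6 of 25 genes above 0. The 5 calls are 20% of the genes tested, against 11.7% called in either direction and 5.68% called lower among all named genes. The HF side was called for 0 of the 25 genes. In the channel sum 1 was called lower, but 0 were called lower in both readouts, so none of the 5 called genes passed in the channel sum. The fatty acid desaturase gene *fads2*, which introduces double bonds on the way to long-chain polyunsaturated fatty acids, had log2 LIM/HF ratios of −1.02, −1.36, −2.45 and −1.28. Its log2 HER/HF ratios were −0.60, 0.92, 0.68 and −0.34, all above the LIM ratios. With all arrays, the ratio difference was −1.69 (SE 0.43, adjusted p = 0.15), 3.23-fold, with a channel sum of −1.57 that was not called and an HF side of −0.06. It passed the unadjusted threshold in every setting and without each array in turn (−1.95 to −1.38).

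The stearoyl-CoA desaturase gene *scd*, the source of most monounsaturated fatty acids, had log2 ratios of −0.70, 0.39, −0.61 and 0.30 for LIM/HF and 0.60, 1.59, 0.96 and 0.27 for HER/HF. The groups overlapped slightly, and the ratio difference of −1.01 (SE 0.36, adjusted p = 0.248) was lost without LIM1, LIM3 or HER2 (−1.20 to −0.76). The farnesyl diphosphate synthase gene *fdps*, of the cholesterol pathway, had log2 ratios of −0.87, −0.26, −1.09 and −0.36 for LIM/HF and −0.00, 0.84, 0.04 and 0.15 for HER/HF. It differed by −0.90 (SE 0.27, adjusted p = 0.186) and kept its unadjusted call in every setting. The squalene epoxidase gene *sqle* differed by −0.93 (adjusted p = 0.269) and was lost without LIM3 or HER2 (−1.08 to −0.62). The fifth called gene was *srebf1*, named after its values were seen, which encodes the transcription factor that drives fatty acid synthesis genes. Its log2 ratios were −0.68, −0.65, −0.71 and −1.39 for LIM/HF and −0.50, −0.21, −0.10 and −0.23 for HER/HF, a difference of −0.60 (SE 0.21, adjusted p = 0.233). The call of *srebf1* held without each array in turn (−0.68 to −0.42) and was lost in 1 other setting (−0.37). Without each array in turn, 3 to 8 genes of the list were called lower, the fewest without LIM3 and the most without LIM2, with a median of −0.45 to −0.22, and in the other settings 4 to 9 genes with a median of −0.49 to −0.17.

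Genes of fat storage did not move in 1 direction. Of 33 genes on the list of adipogenesis and lipid storage, 23 were tested, 3 were called higher and 2 lower in LIM (21.7%, against 11.7% of all named genes), and the median was 0.03. The genes higher in LIM encode proteins that act on stored or circulating fat. The lipase inhibitor gene *angptl4* had log2 ratios of 2.69, 2.08, 3.00 and 3.10 for LIM/HF and 2.12, 1.71, 1.65 and 1.69 for HER/HF. Its ratio difference was 0.92 (SE 0.25, adjusted p = 0.161), with a channel sum of 0.90 that was not called and an HF side of 0.01. The call of *angptl4* in the ratio difference was lost when the arrays were scaled to one spread (0.42). The gene *g0s2*, an inhibitor of adipose triglyceride lipase, had log2 ratios of 0.45, −0.13, 0.66 and 1.24 for LIM/HF and −0.73, −0.26, 0.01 and −0.71 for HER/HF. Only LIM2 lay below a HER array, and the ratio difference was 0.98 (SE 0.31, adjusted p = 0.202), with a channel sum of 1.15 and an HF side of −0.09.

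The lipid droplet coat gene *plin2* differed by 0.79 (SE 0.30, adjusted p = 0.27), with a channel sum of 0.78 and an HF side of 0.01, and was lost without LIM1, LIM4, HER2 or HER3 (0.55 to 0.96). Lower in LIM was *cebpa*, the adipogenic transcription factor gene, with log2 ratios of −1.46, −1.52, −1.96 and −2.84 for LIM/HF and −1.36, −0.92, −0.46 and −0.51 for HER/HF. Its ratio difference was −1.13 (SE 0.35, adjusted p = 0.195), and it was lost with normexp on the backgrounds as measured (−0.74). The adipsin gene *cfd*, a secreted product of adipocytes, differed by −0.86 (adjusted p = 0.259) and was lost without LIM1 or LIM4 (−1.04 to −0.55). Of 8 adipocyte markers, 7 were tested and 0 were called in the ratio difference. In the channel sum 3 were called higher, against 293 of 6815 named genes. In such cultures, fewer cells of a type and less RNA per cell cannot be told apart.

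**Figure D3:**
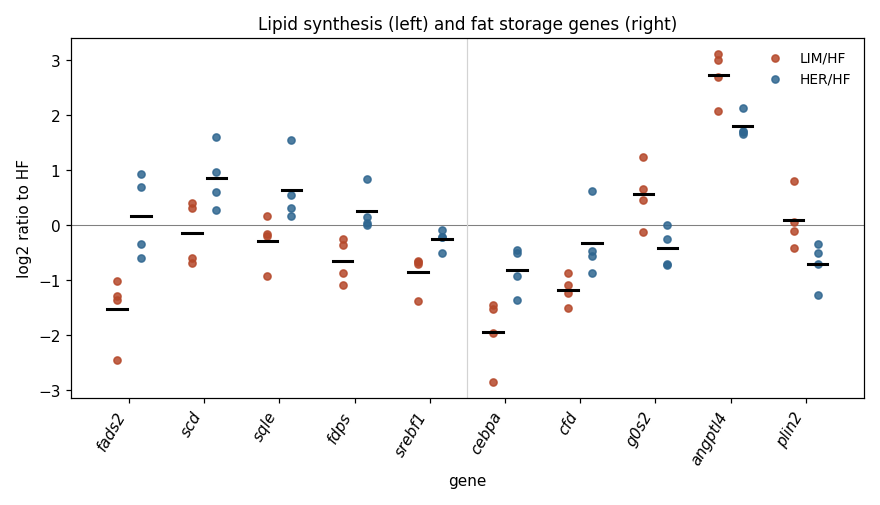
Log2 ratio to HF (y axis) of 5 lipid synthesis genes on the left and 5 fat storage genes on the right, with the 4 arrays of each breed as points and their means as black lines. The LIM mean lies below the HER mean for all 5 synthesis genes, while that of *g0s2*, *angptl4* and *plin2* lies higher and that of *cebpa* and *cfd* lower.

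Of 25 myogenic regulators, 11 were tested, 2 were called higher and 1 lower in LIM, with a median of 0.13. These 3 calls were 27.3% of those tested, against 11.7% of all named genes. The myoblast determination gene *myf5* had log2 LIM/HF ratios of 3.34, 1.92, 2.65 and 1.74 and log2 HER/HF ratios of 1.67, 2.00, 1.08 and 0.78. All 8 ratios were above 0 and the groups overlapped. The ratio difference was 1.03 (SE 0.41, adjusted p = 0.287), with a channel sum of 0.17, and the call was lost without LIM1, LIM3, HER3 or HER4 (0.72 to 1.26). The enhancer factor gene *mef2a* had log2 ratios of 0.69, 0.35, 0.57 and 0.21 for LIM/HF and 0.02, −0.26, −0.02 and −0.49 for HER/HF. Its difference of 0.64 (SE 0.18, adjusted p = 0.172) was called in every setting.

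The Notch target *hes1*, a repressor of myogenic differentiation, was lower in LIM. Its log2 ratios were −0.97, −0.78, −0.88 and −1.46 for LIM/HF and −0.36, 0.24, −0.48 and −0.66 for HER/HF. This gene differed by −0.71 (SE 0.24, adjusted p = 0.231), with a channel sum of −0.62 and an HF side of −0.04, and it was lost when the arrays were scaled to one spread (−0.50). The other muscle regulatory factors tested, *myog*, *myod1* and *myf6*, did not pass. The mean log2 ratios of *myog* were 2.04 ± 0.51 (SD, n = 4) for LIM/HF and 2.07 ± 0.40 (SD, n = 4) for HER/HF, and the ratio differences of *myod1* and *myf6* were −0.24 (SE 0.56) and 0.12 (SE 0.46). The satellite cell gene *pax7* and the myostatin gene *mstn* were not among the genes tested.

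Of 53 genes of the sarcomere and of muscle contraction, 34 were tested, and 0 passed in either direction, against 11.7% of all named genes. The median log2 ratio of the list was 2.19 for LIM/HF and 1.92 for HER/HF. The median ratio difference was 0.28 and became −0.21 when the arrays were scaled to one spread. Without LIM2, 7 genes of the list were called higher in LIM, and without HER4 5 genes. The brightest members were *tpm1*, a tropomyosin gene, at 0.15 (SE 0.35) and *actc1*, the cardiac alpha-actin gene expressed in myoblasts and developing muscle, at 0.60 (SE 0.32, adjusted p = 0.432). Of *actc1*, 0.61 was on the HF side and −0.01 on the beef side after normalization between arrays. Its median processed signals before that were 25430 in LIM, 18106 in HER, 2156 in HF beside HER and 1944 in HF beside LIM.

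Of 24 genes of calcium handling and the neuromuscular junction, 10 were tested, with 0 calls, against 11.7% of all named genes, and a median of 0.03. The ratio differences were −0.03 for *atp2a2*, the calcium pump gene, and 0.03 for *cacnb1*, a calcium channel subunit gene. Of 10 markers of satellite cells and myoblasts, 6 were tested, with a median log2 ratio of 2.02 for LIM/HF and 1.39 for HER/HF, and *myf5* was the 1 called. Of 10 markers of differentiating muscle cells, 3 were tested and 0 were called, with medians of 4.30 and 4.05. The regulators *myf5*, *myod1* and *myog* were well above background in all 16 channels, those of HF included.

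Vascular cell markers varied more between the arrays of a breed than between breeds. Of 9 endothelial markers, 6 were tested and 1 was called (16.7%, against 11.7% of all named genes). All 6 ratio differences were above 0, with a median of 0.93. The log2 ratios of the sialomucin gene *emcn* were −1.95, 3.31, 0.89 and 4.20 for LIM/HF and 4.16, −0.50, −4.11 and 2.06 for HER/HF. Its ratio difference of 1.21 had an SE of 1.91 and an adjusted p of 0.822. The angiopoietin receptor gene *tek* ran in parallel, with 0.63, 3.61, 0.87 and 3.83 for LIM/HF and 3.86, −0.42, −3.29 and 0.79 for HER/HF, a ratio difference of 2.00 (SE 1.45, adjusted p = 0.573). The differences of *esam*, *kdr* and *tie1* were 0.92, 0.94 and 0.73, each with an SE above 1. LIM2, LIM4 and HER1 were the 3 highest arrays in each of these 5 genes, and HER3 was the lowest. The called marker was the tight junction gene *cldn5* (0.50, adjusted p = 0.231), which was lost without LIM3 or HER2 (0.40 to 0.59). The median of the list was −0.10 without HER3 and 1.82 without HER1. These endothelial genes were named after their values were seen. Their part in other differences was not tested.

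**Figure D4:**
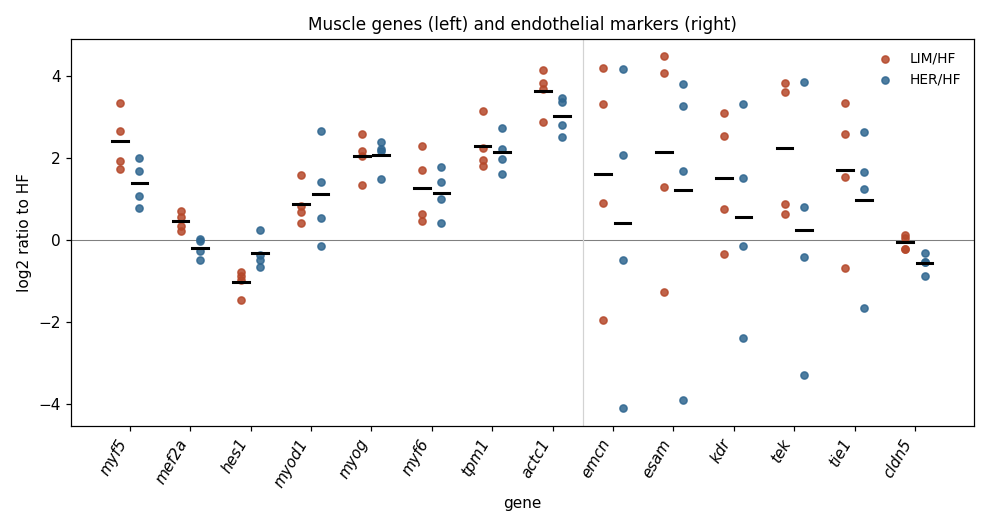
Log2 ratio to HF (y axis) of 8 muscle genes on the left and 6 endothelial markers on the right, with the 4 arrays of each breed as points and their means as black lines. The muscle genes other than *myod1* spread over at most 2 log2 units within a breed, whereas *emcn* runs from −4.11 to 4.20 over the 8 arrays.

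The remaining markers of other cells are set against the 11.7% of all named genes that were called. Of 12 fibroblast markers, 11 were tested, with 1 called lower and a median of −0.08. Of 10 markers of smooth muscle cells and pericytes, 5 were tested and 0 were called in the ratio difference. In the channel sum 2 were called lower, against 382 of 6815 named genes. Of 10 macrophage and leukocyte markers, 3 were tested and 0 were called, and of 6 Schwann cell markers, 2 were tested and 1 was called higher. On the list of the smooth muscle contractile apparatus, 11 of 15 genes were tested, with 1 called lower, a median ratio difference of −0.25 and a median channel sum of −0.67. The called gene *lmod1*, a leiomodin that nucleates actin filaments, differed by −1.07 (SE 0.40, adjusted p = 0.264) and was lost without HER1 or HER2 (−1.35 to −0.67).

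Of 47 genes of fibrillar collagens and interstitial matrix, 27 were tested, 2 were called lower in LIM and 0 higher, and the median was 0.13. The calls were 7.41% of those tested, below the 11.7% of all named genes. The latent TGF-beta binding protein gene *ltbp2*, which belongs to elastic microfibrils, had log2 ratios of 1.25, 0.89, 0.56 and −1.04 for LIM/HF and 2.22, 2.58, 1.71 and 1.51 for HER/HF. Its ratio difference was −1.59 (SE 0.49, adjusted p = 0.197), with a channel sum of −0.78. It was lost with normexp on the backgrounds as measured (−1.27). The elastic fibre gene *fbln5* differed by −0.77 (SE 0.26, adjusted p = 0.231) and was lost without HER2 (−0.95 to −0.61). Both genes encode elastic fibre components. Of 23 basement membrane genes, 6 were tested and 0 were called, with a median of 0.27, 0.69 for *hspg2* (perlecan) and 0.23 for *itga7*, the laminin receptor subunit of muscle. Of 26 matrix proteases and inhibitors, 18 were tested and 11.1% were called, against 11.7% of all named genes. The inhibitor gene *reck* was called higher (1.01, adjusted p = 0.314) but was lost without LIM1, LIM2, LIM3, HER1, HER2 or HER4 (0.74 to 1.41). The collagenase gene *mmp13* was called lower (−1.49, adjusted p = 0.208), was well above background on 1 LIM and 0 HER arrays, and was lost in all 3 renormalizations (−0.17 to −0.14).

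Wnt signalling acts on satellite cell self-renewal and differentiation. Of 44 Wnt pathway genes, 17 were tested, with 1 called higher, 2 lower (17.6%, against 11.7% of all named genes) and a median of −0.28. The R-spondin gene *rspo3*, whose product enhances Wnt signals, had log2 ratios of −1.22, −0.53, 0.81 and 1.23 for LIM/HF and 1.37, 1.57, 2.53 and 1.50 for HER/HF. All HER ratios were above the highest LIM ratio. The gene differed by −1.67 (SE 0.54, adjusted p = 0.214), with a channel sum of −1.21 and an HF side of −0.23, and it was lost with normexp on the backgrounds as measured (−0.59). The secreted Wnt modulator gene *dkk2* had log2 ratios of −1.52, −1.62, −1.81 and −2.33 for LIM/HF and −1.37, −0.61, −0.44 and −0.25 for HER/HF, a ratio difference of −1.16 (SE 0.28, adjusted p = 0.142). The feedback gene *axin2*, a direct target of beta-catenin, was higher in LIM by 0.62 (SE 0.18, adjusted p = 0.188) but was lost in all 3 renormalizations (0.13 to 0.25). Of 22 Notch pathway genes, 8 were tested, with *hes1* the 1 called and a median of 0.77, which was 0.02 without HER3.

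In the TGF-beta and myostatin pathway, 19 of 40 genes were tested and 1 was called (5.26%, against 11.7% of all named genes). It was *smad2*, which encodes a signal transducer of TGF-beta and myostatin receptors. The log2 LIM/HF ratios were 0.76, 0.77, 0.78 and 0.43 and the log2 HER/HF ratios −0.18, −0.14, −0.26 and −0.26. The groups were separate with little spread, and the ratio difference was 0.89 (SE 0.14, adjusted p = 0.061), with 0.66 on the beef side and 0.24 on the HF side. It was called in every setting and without each array in turn (0.86 to 0.98). In the insulin-like growth factor system, 6 of 19 genes were tested and 0 were called. The growth factor gene *igf2* differed by 0.43 (SE 0.39, adjusted p = 0.668), and the binding protein genes *igfbp4* and *igfbp6* by 0.16 (SE 0.42) and −0.43 (SE 0.54).

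Immune lists gave 1 call each, 4.17% and 6.67% of the genes tested, against 11.7% of all named genes. Of 38 chemokine and inflammatory cytokine genes, 24 were tested, with a median of 0.35, which was −0.07 with normexp on the backgrounds as measured. The interleukin gene *il1b* was called higher (0.47, adjusted p = 0.29), was well above background on 1 of 4 HER arrays, and was lost without LIM2, LIM3, LIM4, HER1, HER2 or HER3 (0.41 to 0.63). Of 50 interferon response and antigen presentation genes, 15 were tested, with a median of 0.21. A ratio difference above 0 was seen for 13 of them, against 3389 of 6815 named genes. The interferon-induced gene *herc6* was called higher (0.82, adjusted p = 0.251), with a channel sum of 1.04 and an HF side of −0.11, and was lost without LIM1, LIM2 or HER1 (0.65 to 1.02). In the channel sum, 4 of the 15 genes of this list were called higher, against 293 of 6815 named genes.

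Of 99 genes of the mitochondrial respiratory chain, 71 were tested, with 4 called higher, 1 lower and a median of −0.11, a share of 7.04% that lay below the 11.7% of all named genes. The called members included 4 subunits of complex I, the NADH dehydrogenase, which moved in opposite directions. The accessory subunit gene *ndufa5* had log2 ratios of −0.70, −0.68, −0.81 and −0.41 for LIM/HF and 0.13, 0.39, 0.04 and 0.26 for HER/HF, a ratio difference of −0.86 (SE 0.15, adjusted p = 0.0772). The core subunit gene *ndufs1* had log2 ratios of −0.09, 0.07, −0.08 and 0.10 for LIM/HF and −0.72, −0.37, −0.61 and −0.87 for HER/HF. It differed by 0.64 (SE 0.16, adjusted p = 0.139), with a channel sum of 0.79 and an HF side of −0.07. Also higher in LIM were *ndufa1* (0.59, adjusted p = 0.225) and *ndufs4* (0.52, adjusted p = 0.172). The 4 complex I calls held without each array in turn. The cytochrome oxidase isoform gene *cox4i2* (0.95, adjusted p = 0.259) was lost without LIM3, LIM4 or HER1 (0.70 to 1.13). Of 30 glycolysis genes, 24 were tested with a median of −0.06, and the glucose transporter gene *slc2a4* was called higher (0.50, adjusted p = 0.255) but was lost without LIM1, LIM2, LIM4 or HER4 (0.38 to 0.60).

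Cytosolic ribosomal protein genes were called in 1 direction. Of 83 such genes, 58 were tested, 8 were called higher in LIM and 0 lower, and the median was 0.13. The 8 calls are 13.8% of the genes tested, near the 11.7% called in either direction among all named genes, of which 5.97% were called higher. The largest differences were those of *rps12* (0.82, adjusted p = 0.27), *rpl13* (0.61, adjusted p = 0.148), *rps24* (0.61, adjusted p = 0.201) and *rps18* (0.59, adjusted p = 0.161). For *rpl13*, the log2 LIM/HF ratios were 0.87, 0.77, 0.94 and 1.07 and the log2 HER/HF ratios 0.33, 0.36, 0.48 and 0.03. The HF side was called for 3 of the 8, at 0.76 for *rps12*, 0.44 for *rps24* and 0.45 for *rps18*, and in the channel sum 0 of the 58 genes were called higher and *rps12* was called lower (−0.71), opposite in sign to its ratio difference. The remaining calls were *rpl8* (0.52), *rps10* (0.43), *rpl37* (0.41) and *rplp0* (0.41), the first 3 named after their values were seen. The call of *rps12* was lost without LIM1, LIM2, LIM3, HER2 or HER4 (0.56 to 1.05), that of *rplp0* without LIM1, LIM2, LIM3, HER2, HER3 or HER4 (0.32 to 0.50), that of *rpl37* without LIM1 or HER2, and that of *rps10* without LIM4. Without each array in turn, 5 to 12 genes of the list were called higher, the fewest without LIM1 or HER2, and 17 to 20 in the 3 renormalizations. Ribosomal protein genes have many near-identical copies in the genome, so a probe can also bind transcripts of a copy.

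Proliferation and stress lists gave a single call, 0% and 3.85% of the genes tested, against 11.7% of all named genes. Of 63 genes of the cell cycle and DNA replication, 35 were tested, 0 were called in the ratio difference or in the channel sum, and the median was −0.03. The ratio differences were 0.07 (SE 0.30) for *cdkn1a*, the cell cycle inhibitor p21, and −0.00 (SE 0.27) for *tk1*, the S-phase thymidine kinase. Of 42 heat shock protein and chaperone genes, 26 were tested, with a median of −0.02. The endoplasmic reticulum chaperone gene *hspa5* was called higher (0.47, adjusted p = 0.278) and was lost without LIM1, LIM4, HER1, HER3 or HER4 (0.35 to 0.56). Among 10 of 15 reference genes tested, *rplp0* was the 1 called. The ratio difference of *gapdh*, the reference gene of the study's qPCR, was −0.10 (SE 0.15), and that of *actb* was 0.30 (SE 0.18, adjusted p = 0.482). Both were positive in the 3 renormalizations, in which *actb* was called in 2.

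**Figure D5:**
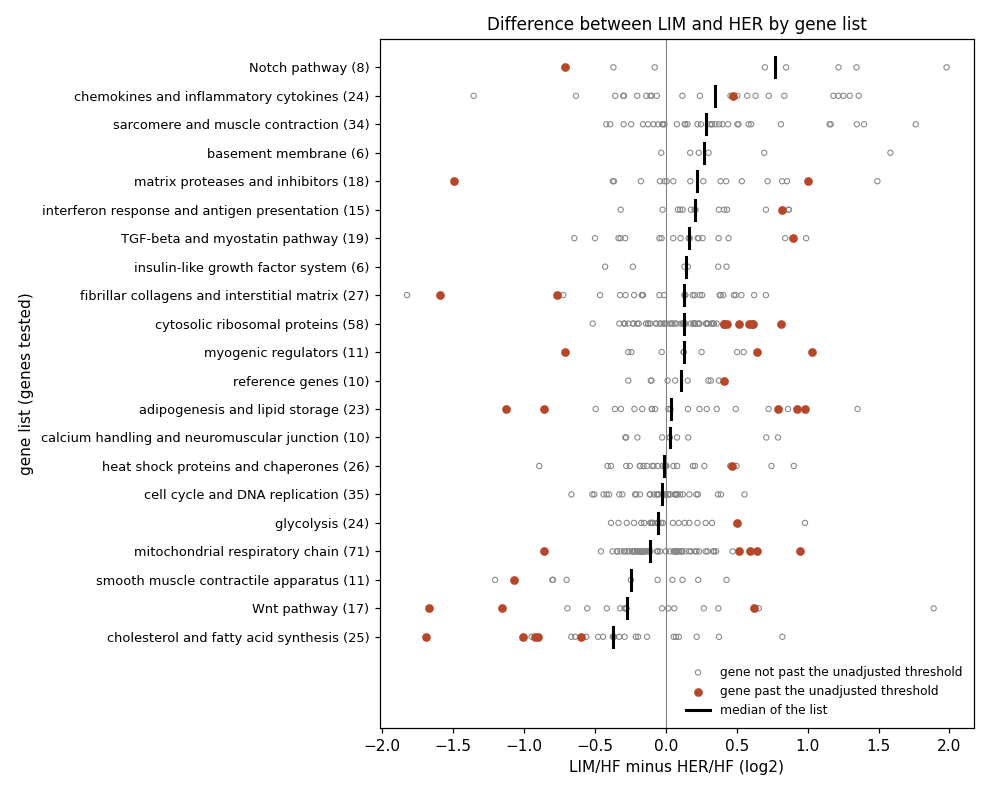
Ratio difference (LIM/HF minus HER/HF, log2, x axis) of the tested genes of each gene list (y axis, number of genes tested in parentheses), with filled points for genes past the unadjusted threshold and black bars for the median of a list. Cholesterol and fatty acid synthesis has the lowest median (−0.37) with 5 genes called lower and 0 higher, and ribosomal proteins have 8 genes called higher and 0 lower. These calls are 20% and 13.8% of the genes tested on these lists, against 11.7% of all named genes.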

How the data were processed

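Arrays were assigned to a breed and a dye orientation from the sample labels. Scanning software (Feature Extraction 10.7.3.1) produced the files that the authors deposited, 1 for each array. They hold an intensity for each spot and its local background in red and green, and the log10 red to green ratio, corrected for background and dye by that software. Per the file headers these processed intensity values carry a floor at low signal, which pulls ratios of dim probes toward 0. The deposited series table held the same log10 ratios.

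Control spots and outlier spots were left out, spots of one probe were averaged, and the ratios were turned to log2 beef breed over HF. Of 17631 probes tested, 2 lacked an array. The ratio difference, the channel sum (quantile normalized between arrays) and the HF side were fitted with limma 3.58.1 in R 4.3.3 on all 8 arrays, and p-values were adjusted over all tested probes. The methods' t-test and the other alternatives are given in the closing section. Of 20693 accessions on the array, 7793 were named through a RefSeq gene table and 6 through gene names printed with the study. The array's genome build differs from that of the table, so no positions are given.

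Same-numbered arrays deviated together in the HF channels (r of 0.629 to 0.824 against at most 0.0163 for other numbers), so the replicate number was treated as pairing the HF channels, and the blocked count stands beside the HF side. The pairing comes from these correlations, not from the labels. In simulated data on 17631 probes with known changes in the ratio difference, 83% of changes of 1 log2 unit and 95% of changes of 2 passed the unadjusted threshold, 38% and 71% the adjusted one, and 4.58% of unchanged probes the unadjusted one. The number of arrays, 4 a breed, limits the precision.

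Named genes were up to 10 bright genes in each direction by size, past the adjusted threshold or else past the unadjusted one without overlap. To these were added up to 4 called members of each gene list in each direction (or its 2 brightest members), up to 5 genes in each direction called in both readouts, and a set of muscle and reference genes. A gene that the rule picked is not reported here. The comparison, lists and rules were chosen with earlier results of these data known, and counts over lists carry no test. The folds of *asip*, *ptger2* and *vipr1* compare means normalized between arrays, with the lowest signal above background of each array as a bound on the dim side. The *asip* folds hold under this bound and are not lower limits of the processed signals. For *ptger2* and *vipr1* the bound equalled the measured HER mean, so their folds are measured ones and not lower limits.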

Additional observations from a re-analysis of the deposited data

Results flagged for a closer look

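The 94 named genes and probes include 3 probes without a symbol. Among them, 188 groups of 4 arrays were examined. In 12 of these groups 1 array lay apart from the other 3 by Dixon's criterion, which chance meets in about 5% of groups. On the LIM arrays these were LIM1 for *mbd5* (log2 ratio 1.80) and *gfpt2* (−0.29), LIM3 for *atp2a2* (0.86), *gapdh* (0.32) and *ndufs4* (−0.0535), and LIM4 for *slco2a1* (1.19), *igfbp4* (−0.0673), *smad2* (0.43) and *srebf1* (−1.39). On the HER arrays they were HER1 for *angptl4* (2.12) and HER4 for *il1b* (−0.000217) and *slc2a4* (−1.55).

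The ratio to HF differed between the breeds past the adjusted threshold for 6 named genes: *asip* (−4.23), *cd27* (2.09), *ptger2* (1.62), *vipr1* (1.49), *cetn2* (1.03) and *fam107a* (−1.29). The same held for the probes without a symbol A_73_116780 (3.98), A_73_118946 (−1.35) and A_73_106475 (−1.94).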

How the results depend on the processing

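Of the values of named genes and of the named probes without a symbol under the alternatives, 1690 kept their direction and side of the unadjusted threshold. A call was lost for 170 and gained for 9, and 1 value reversed, that of *loc281376* with normexp on the backgrounds as measured (−0.0312). That setting cost 24 calls, normexp with marked backgrounds replaced 12 and no background correction 18; the cause was not tested. In the ratio difference, these settings (each with loess) gave 1522 calls (782 higher in LIM), 1597 (720 higher) and 1379 (611 higher) at the unadjusted threshold and 0, 1 and 41 at the adjusted one. With 0 adjusted calls there were 1522 unadjusted, and the methods' t-test on the scanner ratios gave 2135 unadjusted and 32 adjusted. Scaling between arrays left 12 adjusted calls, no filter 76, array weights 224, and probes above background in all channels 0 (1839 unadjusted, 817 higher). Median centring gave 1177 higher and 1356 lower. At a fold of at least 2 there were 588 calls, 354 higher and 234 lower.

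Without each array in turn, the ratio difference had 1953 to 2916 unadjusted calls, 1140 to 1598 higher and 772 to 1367 lower, and 1 to 14 adjusted. The channel sum had 1645 to 2692 and 1 to 7, and the HF side 1013 to 1500 and 5 to 17. The channel sum had 12 adjusted calls without the filter and 0 with probes above background in all channels, where the HF side had 605 unadjusted and 9 adjusted.

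The numbers did not pair the ratios (r of same-numbered deviations −0.24 to 0.54, and 1 of 4 numbers correlated best with itself). With the replicate block, the ratio difference had 2706 unadjusted and 0 adjusted calls, the channel sum 1 adjusted, and the HF side, where the numbers did pair, 953. Of the 41 adjusted calls, 27 had a channel set above background on no array. Whether signal over background limits the adjusted calls was not tested.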
